A study of Mus musculus with 2 samples.

Results

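The miR-103 and miR-107 genes of the mouse are Mir103-1, Mir103-2 and Mir107, each lying in an intron of a pantothenate kinase gene. They were chosen by name, as 3 of the 1973 miRNA genes counted in 2 small RNA libraries of embryonic lung, and each of the 3 reached 10 counts or more in replicate 2 and in replicate 1, as did 320 of the 1973 genes. MicroRNA sequencing counts reads of the small RNA fraction, here RNA under 30 nt. The libraries are biological replicates 1 and 2 of 1 group, B6NCrl lung at embryonic day 14.5, with no genotype, treatment or other stage named to compare. The labels describe a single lung of 1 pup for each library and yet a pooled sex, so more than 1 embryo per library is possible. Collection dates differ between the replicates, so replicate and collection date cannot be told apart.

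MicroRNAs are cut from hairpin precursors, and each hairpin can release a product from its 5′ arm (5p) and from its 3′ arm (3p). A product pairs with target messenger RNAs mainly through its seed, bases 2 to 8, and lowers their output. Pantothenate kinases catalyse the first committed step of coenzyme A synthesis from vitamin B5, and their introns have carried miR-103 and miR-107 through vertebrate evolution. In mice, miR-103 and miR-107 are known for lowering insulin sensitivity in liver and fat, where the caveolin gene Cav1 is a target. In human breast cancer cells they target DICER1, which encodes the enzyme that cuts miRNA precursors.

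The sequences are shown first because they set which reads can be assigned to which gene. The 3p products, from RefSeq on GRCm38.p6 (the assembly also called mm10), are printed 5′ to 3′ with the seed in capitals, and the miR-103-3p sequence is identical at both Mir103 genes.
mmu-miR-103-3p: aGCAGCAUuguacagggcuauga
mmu-miR-107-3p: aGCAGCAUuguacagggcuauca
Counted from 1 at the 5′ end, miR-103-3p and miR-107-3p differ by the single substitution G22C and share their first 21 bases. Of the 1738 mature entries in the RefSeq table, only those of these 3 genes carry the seed GCAGCAU.

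The 5p products differ among all 3 genes, and capitals mark the bases at which they differ.
mmu-miR-103-1-5p: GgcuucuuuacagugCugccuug
mmu-miR-103-2-5p: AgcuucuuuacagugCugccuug
mmu-miR-107-5p: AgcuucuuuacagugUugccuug
From miR-103-2-5p to miR-103-1-5p the substitution is A1G, and from miR-103-2-5p to miR-107-5p it is C16U. Mir103-1 and Mir103-2 therefore each have 1 duplicated and 1 unique product of 2, whereas both products of Mir107 are unique in full length.

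The hairpins are printed with the mature products in capitals, to show how little of each precursor tells the genes apart.
Mir103-1 hairpin: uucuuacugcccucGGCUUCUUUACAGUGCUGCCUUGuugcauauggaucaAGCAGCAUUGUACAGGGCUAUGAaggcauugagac
Mir103-2 hairpin: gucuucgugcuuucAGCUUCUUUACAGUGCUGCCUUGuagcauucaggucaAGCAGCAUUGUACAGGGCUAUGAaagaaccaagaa
Mir107 hairpin: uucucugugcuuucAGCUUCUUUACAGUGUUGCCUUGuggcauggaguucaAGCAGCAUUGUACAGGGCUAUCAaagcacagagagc
In a global alignment Mir103-1 and Mir103-2 were identical at 69 of 86 columns (80.2%), Mir103-1 and Mir107 at 70 of 87 (80.5%), and Mir103-2 and Mir107 at 73 of 87 (83.9%). The 2 Mir103 hairpins share an unbroken stretch of 27 bases around the 3p product and of 23 bases in the 5p arm. Each Mir103 hairpin shares 24 bases around the 3p product with Mir107, and Mir103-2 shares 23 bases of the 5p side with it. A read lying inside such a stretch matches both genes, and the deposited tables put multimapping reads in a single total and assign them to no gene.

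Each gene lies in an intron of its host, on the host's strand and outside the exons of every spanning protein-coding transcript in GENCODE M21 (mm10). Mir103-1 (ENSMUSG00000065553.1) is at chr11:35782396-35782481 on the plus strand, in intron 5 of 6 of Pank3, 688 bases after the upstream exon. Mir103-2 (ENSMUSG00000065563.1) is at chr2:131288052-131288137 on the plus strand, in Pank2. It falls in intron 5 of 6 of the protein-coding transcript whose upstream exon lies nearer, at 454 bases, and in intron 2 of 3 of another. Mir107 (ENSMUSG00000065594.1) is at chr19:34820687-34820773 on the minus strand, in intron 5 of 6 of Pank1 (intron 4 of 5 in a shorter transcript), 326 bases after the upstream exon. Pank messenger RNA was not measured here.

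The libraries were of unequal depth: 2332032 reads in replicate 2 and 5128214 in replicate 1 fell on the strand of an annotated miRNA gene. Levels are counts per 1000000 of these (CPM). Multimapping reads were 33.1% of all reads in replicate 2 and 32.9% in replicate 1. Markers of cell types found in lung were present in both libraries. The 5 epithelial miRNAs of the miR-200 family summed to 33730 CPM in replicate 2 and 33294 CPM in replicate 1, endothelial Mir126a stood at 58438 and 76033 CPM, and smooth muscle Mir143 with Mir145a at 62023 and 79791 CPM. Markers of other tissue were lower than these, though each value in the next sentence was above that of Mir103-1 in the same library. The 2 red blood cell miRNAs summed to 391.5 and 497 CPM, liver Mir122 stood at 39.5 and 22.4 CPM, and the 3 heart miRNAs summed to 42.0 CPM in replicate 2 against 361 CPM in replicate 1. All 3 heart markers were detected, and their part in the values below was not tested.

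Mir107 carried nearly all reads that could be assigned to the family, and the Mir103 genes very few. Mir103-1 had 23 counts in replicate 2 and 27 in replicate 1, which are 9.86 CPM (95% exact binomial interval 6.25 to 14.8) and 5.26 CPM (3.47 to 7.66). Mir103-2 had 192 and 361 counts, or 82.3 CPM (71.1 to 94.8) in replicate 2 and 70.4 CPM (63.3 to 78.04) in replicate 1. Mir107 had 5121 and 10046 counts, or 2196 CPM (2136 to 2257) in replicate 2 and 1959 CPM (1921 to 1998) in replicate 1. The order Mir107, Mir103-2, Mir103-1 was the same in both libraries, and no interval of one gene overlapped that of another. The intervals cover counting error only, since amplified reads need not be independent molecules. None of the genes had a read on the opposite strand in either library (0 counts).

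Mean levels were 7.56 ± 3.25 CPM for Mir103-1, 76.4 ± 8.44 CPM for Mir103-2 and 2077 ± 168 CPM for Mir107 (SD, n = 2 each). By mean CPM they ranked 294th, 202nd and 72nd of the 1973 genes. The SD was 43.0% of the mean for Mir103-1, 11.1% for Mir103-2 and 8.07% for Mir107, so the gene with the fewest counts was also the least precise. The 3 genes together stood at 2161 ± 179 CPM. The most abundant gene of the tables, Mir143, averaged 69405 ± 12610 CPM.

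**Figure D1:**
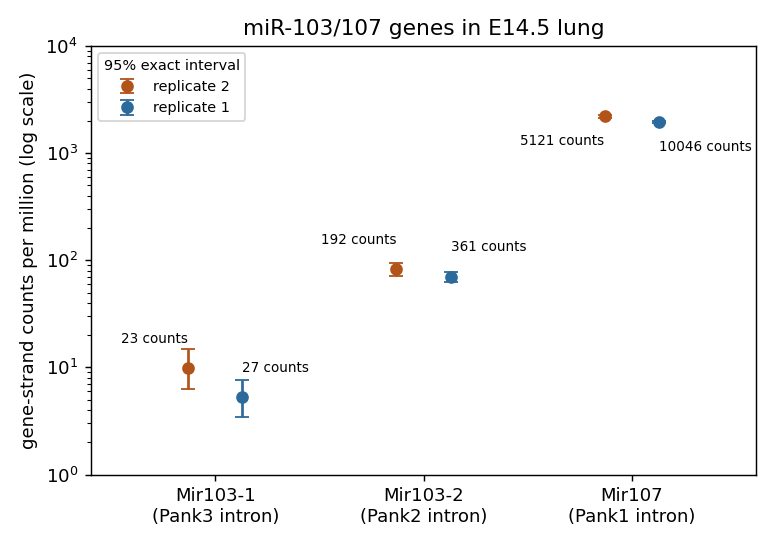
Level of Mir103-1, Mir103-2 and Mir107 (gene-strand CPM, log axis) in replicate 2 and replicate 1, with 95% exact binomial intervals and the counts behind each point. Mir103-1 lies below 10 CPM, Mir103-2 at 82.3 and 70.4 CPM and Mir107 at 2196 and 1959 CPM, with no overlap between genes.

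The genes with the duplicated 3p product were then set against the gene with unique products, within each library and without any scaling between libraries. Summed, Mir103-1 and Mir103-2 had 215 counts against 5121 for Mir107 in replicate 2, and 388 against 10046 in replicate 1. They held 4.03% of the family's counts (exact interval 3.52 to 4.59) in replicate 2 and 3.72% (3.36 to 4.10) in replicate 1, a mean of 3.87% ± 0.22 (SD, n = 2). The summed Mir103 genes were thus 23.8-fold and 25.9-fold below Mir107. The log2 ratio was -4.57 in replicate 2 and -4.69 in replicate 1, a mean of -4.63 ± 0.09 (SD, n = 2). Both libraries lay on the same side of 0. With n = 2 the smallest p that an exact two-sided sign test allows is 0.5, and no p is reported.

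This ratio compares assigned reads and not the amounts of miR-103 and miR-107. The multimapping reads numbered 294 times the Mir107 count in replicate 2 and 334 times in replicate 1. A read of exactly miR-103-3p lies inside the stretch common to both Mir103 genes and is counted at neither. How many of the multimapping reads were miR-103-3p cannot be read from the deposited tables. By how much the Mir103 counts fall short of the reads these genes gave is therefore unknown. The CPM values are no bounds, since unassigned reads would also enter their denominator. With such reads in it, Mir103-1 stood at 4.38 CPM, Mir103-2 at 44.2 CPM and Mir107 at 1202 CPM. The ratio does not depend on that denominator. It is no bound either, since Mir107 may also have lost reads that end before base 22 of its 3p product. How many it lost was not tested. Whether the 2 products enter a library equally well is unknown here.

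The 2 Mir103 genes were themselves unequal. Mir103-1 held 10.7% of the counts of the pair (exact interval 6.90 to 15.6) in replicate 2 and 6.96% (4.64 to 9.96) in replicate 1. Mir103-2 exceeded it 8.35-fold in replicate 2 and 13.4-fold in replicate 1. The log2 ratio of Mir103-1 to Mir103-2 averaged -3.40 ± 0.48 (SD, n = 2). The direction was the same in both libraries, and the intervals of the share overlapped between them. Since miR-103-3p is common to both genes, this ratio rests on reads that reach past a shared stretch, if only by 1 base, and the arm they came from is not recorded in the tables.

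An unequal split of assigned reads between genes was seen at other duplicated miRNAs. As with the Mir103 pair, these ratios rest only on reads that could be assigned to 1 gene. Among miRNA genes counted here, 44 pairs share a mature product found at just those 2 loci, and in 18 pairs both genes had at least 10 counts in both libraries. Some genes stand in more than 1 pair, such as Mirlet7a-1, which shares 1 product with Mirlet7a-2 and a different product with Mirlet7c-2. In all 18 pairs the same gene was ahead in both libraries. The absolute log2 ratio between the genes of a pair, averaged over the libraries, had a median of 1.68 over the 18 pairs. It ran from 0.17 for Mirlet7a-1 and Mirlet7a-2 to 5.49 for Mir181b-2 and Mir181b-1. The Mir103 pair was 7th from the top at 3.40, next to Mir181a-1 and Mir181a-2 at 3.92 and Mir218-2 and Mir218-1 at 1.85.

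Over the whole table, genes with a duplicated mature product were counted less than genes with unique products. A gene was classed as duplicated when at least 1 of its mature sequences occurs in the hairpin of another miRNA gene, which held for 332 genes against 806 with unique products only, while 835 had no mature sequence in the reference. At least 10 counts in both libraries were reached by 45 of the 332 duplicated genes (13.6%) and by 248 of the 806 unique genes (30.8%). The duplicated genes held 2.10% of gene-strand counts in replicate 2 and 1.81% in replicate 1, and the unique genes 89.8% and 88.5%. Over all genes of a class, the 90th percentile of mean CPM was 27.6 for the duplicated and 1339 for the unique ones. These are descriptions of the tables, and no test was made of the difference between the classes. Reads that match more than 1 gene were assigned to none, so by the counting itself duplicated genes lack such reads. The classes are therefore compared by assigned reads and not by amounts of product.

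Within its class Mir103-2 ranked 22nd and Mir103-1 40th of 332 duplicated genes, and Mir107 66th of 806 unique genes. The 3 highest duplicated genes were Mir92-1 (4114 ± 209 CPM), Mir16-1 (3516 ± 410) and Mirlet7f-2 (2224 ± 103.3), all above the level of Mir107 in the mean of both libraries (SD, n = 2). The highest unique gene was endothelial Mir126a, at 67235 CPM. Mir143, the most abundant gene at 69405 CPM, had no mature sequence in the reference and is in neither class. Shares and ranks by class leave out such genes.

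**Figure D2:**
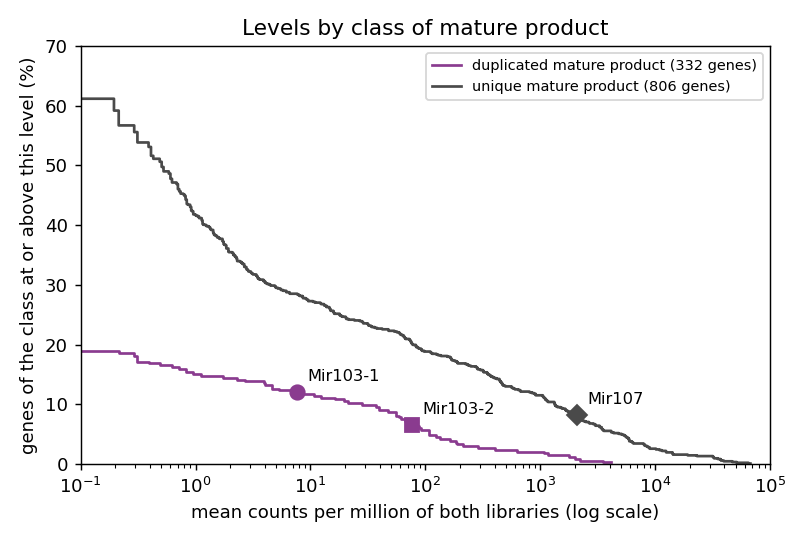
Share of genes (y axis, percent of the class) at or above a given mean level (x axis, CPM, log axis) for 332 genes with a duplicated mature product and 806 with unique products, with Mir103-1, Mir103-2 and Mir107 marked on their class. The line of the duplicated genes runs below that of the unique genes, and Mir107 lies to the right of both Mir103 genes.

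The same contrast was made in 9 other families that hold both kinds of gene. Here too, reads that match more than 1 gene are missing from the duplicated members by the counting itself. The ratios, and the levels printed with them, therefore compare assigned reads and not amounts of product. Summed duplicated members were below summed unique members in both libraries in 9 of the 10 families, that of miR-103 and miR-107 included. The log2 ratio of -4.57 in replicate 2 and -4.69 in replicate 1 placed miR-103 and miR-107 5th from the lowest. The let-7 family lay just below it (-5.23 and -5.48) and the miR-15/16 group just above it (-3.40 and -3.88), and neither overlapped it in any library. Mirlet7e and Mirlet7f-1 of let-7, and Mir497 of the miR-15/16 group, were not among the genes counted and are missing from these ratios.

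The largest gap was in the miR-26 family, with -8.83 in replicate 2 and -8.62 in replicate 1, where Mir26a-2 averaged 55.6 ± 3.49 CPM against 32468 ± 276 for Mir26b. The miR-30 family followed at -8.06 and -7.74 (Mir30c-1 at 91.7 ± 0.0818 CPM, Mir30e at 23033 ± 4272), with Mir30b and Mir30d left out for want of a mature sequence. In the miR-29 family the ratio of -6.51 and -7.21 rested on few reads, since Mir29b-1 stood at 0.819 CPM against 97.6 ± 9.49 for Mir29a. It was -0.51 in the mean when duplicates were defined by 20 shared hairpin bases, which classes Mir29c as duplicated, so its place in this order depends on the definition.

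Smaller gaps were found in the miR-125 family (-2.49 and -2.16), with Mir125b-2 at 401 ± 10.2 CPM and Mir125a at 3444 ± 437, and in the miR-181 family (-1.44 and -1.46), with Mir181a-1 at 2020 ± 86.8 and Mir181c at 5546 ± 353. The gap was smallest in the miR-19 family (-0.53 and -0.71), with Mir19b-1 at 36.8 ± 7.38 CPM and Mir19a at 75.0 ± 13.4. The exception was the miR-92/25 family, at 0.58 in replicate 2 and 0.52 in replicate 1, in which Mir92-1 (4114 ± 209 CPM) exceeded Mir92b (1324 ± 53.4). Families differ in how many genes they hold and in which arm is duplicated, so their ratios are given side by side only.

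**Figure D3:**
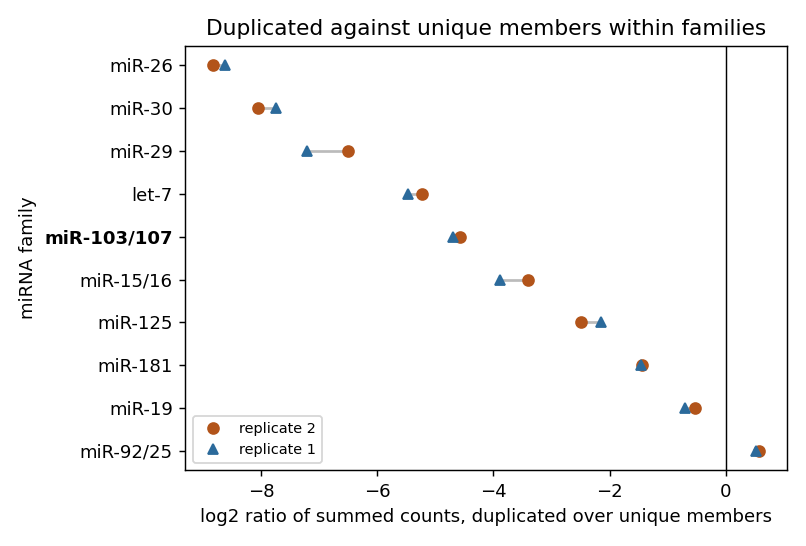
Log2 ratio of summed counts, duplicated over unique members (x axis), in 10 miRNA families (y axis), with a circle for replicate 2 and a triangle for replicate 1. The family of miR-103 and miR-107 lies at -4.57 and -4.69, and miR-92/25 is the family to the right of 0.

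The first 7 bases of miR-103-3p and miR-107-3p, AGCAGCA, are the seed of the miR-15/16 group, a family known for restraining the cell cycle, so the seeds of the 2 groups overlap with an offset of 1 base. Some products of that group are shown with these bases in capitals.
mmu-miR-15a-5p: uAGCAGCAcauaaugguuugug
mmu-miR-15b-5p: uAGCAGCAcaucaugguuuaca
mmu-miR-16-5p: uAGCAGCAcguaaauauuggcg
mmu-miR-195a-5p: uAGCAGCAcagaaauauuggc
mmu-miR-322-5p: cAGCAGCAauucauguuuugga
Of 9 genes listed for the group 8 were in the tables and 6 had at least 10 counts in each library, while Mir497 was not analysed here. By gene-strand counts Mir107, at 2196 and 1959 CPM, stood below 4 of them and above the rest. Those above were Mir322 (46826 ± 5454 CPM), Mir15a (5450 ± 144), Mir16-1 (3516 ± 410) and Mir15b (3010 ± 18.3). Mir195a (1823 ± 189) lay close below, 1689 CPM in replicate 2 and 1956 CPM in replicate 1. In replicate 1 the counts were nearly equal, 10046 for Mir107 and 10032 for Mir195a, and the means of the 2 genes differed by less than the sum of their SDs. Mir16-2 followed at 1066 ± 207 CPM. Mir195b had 0 counts in both libraries, which allows up to 3 counts, or 1.29 CPM in replicate 2 and 0.585 CPM in replicate 1. Mir497b had 2 counts and 0 counts on its own strand, but 4297 and 10309 on the opposite strand. Counted without regard to strand, it averaged 1872 CPM. On their own strands the 8 genes summed to 61691 ± 5187 CPM, most of it Mir322. This sum was 26.4 times the level of Mir107 in replicate 2 and 33.4 times in replicate 1. These are counts per gene that pool both arms of each hairpin, so they do not give the number of reads that carry the seed. Mir16-1 and Mir16-2 were classed as duplicated, so their levels rest only on reads that could be assigned to 1 gene. Their places beside Mir107, and the sum of the group, therefore leave out multimapping reads.

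The genes whose levels were nearest to each member were found by the distance in log2(CPM + 1) over both libraries, among genes with at least 10 counts in both. Nearest to Mir107 were Mir337 (distance 0.12, 2027 and 1954 CPM), Mir484 (0.12, 2290 and 2103 CPM) and Mir381 (0.12, 2159 and 2126 CPM), with replicate 2 before replicate 1. Nearest to Mir103-2 were Mir128-1 (0.09), Mir19a (0.11) and Mir301b (0.12), and nearest to Mir103-1 were Mir5618 (0.07), Mir6539 (0.25) and Mir206 (0.41). With 2 libraries such likeness is one of level only.

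Between the replicates, Mir107 passed a test of its reads with a small difference, and neither Mir103 gene passed. Log2 ratios of replicate 2 to replicate 1 were computed after TMM scaling, with 1 CPM added to each value. A two-sided exact binomial test was applied to all 404 genes with at least 10 counts in total, and p-values were adjusted over them. Such a test compares the reads of 2 libraries and not conditions. The test called 169 of the 404 genes (41.8%), 72 higher (17.8%) and 97 lower (24.0%) in replicate 2, a split that turned round to 112 higher and 65 lower with library totals in place of TMM. Of the 3 genes Mir107 was called, with a ratio of 0.075 on the log2 scale (exact binomial test, adjusted p = 0.00698). A difference of that size lies below the median absolute log2 ratio of all genes tested, 0.23, and among genes of at least 1000 CPM 84.8% were called. The call was lost with DESeq2 size factors (0.028, exact binomial adjusted p = 0.421), and over the alternatives that kept the exact binomial test the adjusted p lay between 2.13e-10 and 0.421. The test holds counting error only. The common dispersion of 0.034 could be estimated only from the difference between the same 2 libraries, so it gives no independent measure of replicate error. Mir103-2 stood at 0.13 (exact binomial test, adjusted p = 0.465) and Mir103-1 at 0.72 (exact binomial test, adjusted p = 0.109 and unadjusted p = 0.0497), and neither passed. The value of Mir103-1 rests on 23 and 27 counts. Scaling moved all log2 ratios together, by -0.09 with TMM and -0.13 with DESeq2 relative to library totals, and all 3 genes kept a ratio above 0 under each.

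**Figure D4:**
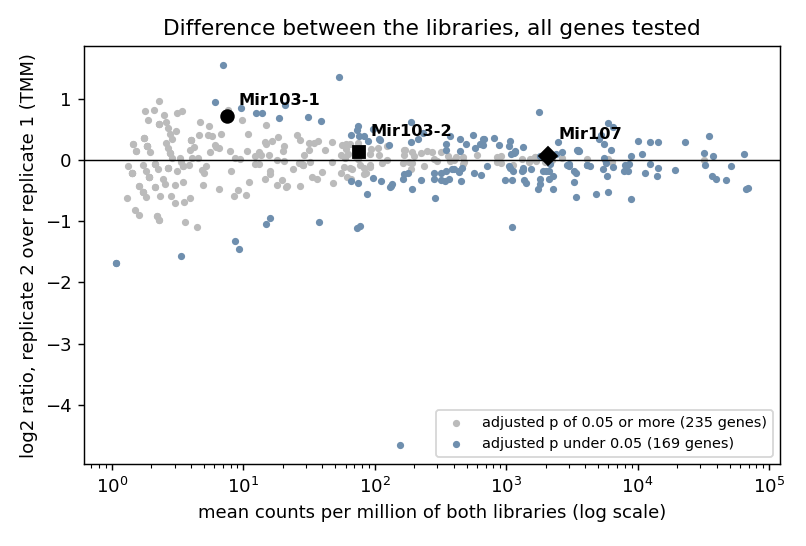
Log2 ratio of replicate 2 over replicate 1 (y axis, TMM-scaled) against mean CPM (x axis, log axis) for the 404 genes tested, blue for the 169 with an adjusted p under 0.05 and grey for the other 235. Mir107 lies at 0.075, Mir103-2 at 0.13 and Mir103-1 at 0.72, the last among genes of few counts whose ratios spread widely.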

How the data were processed

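The authors deposited, per library, whole-number counts per miRNA gene without regard to strand, on the gene's strand and on the opposite strand, judged from the values. Per the deposited readme the assembly was mm10 and the annotation GENCODE M4. Which aligner, counter and trimming were used is not given in the sources used here. The first 4 entries of each table are summaries without a gene and were kept out of library sizes: unmapped, multimapping, no-feature and ambiguous reads were 11.7%, 33.1%, 3.93% and 0% of 4544184 reads in replicate 2, and 12.7%, 32.9%, 4.10% and 0% of 10200412 in replicate 1. No column was unused for lack of a sample (0 columns).

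Gene-strand counts were used, with CPM over all miRNA genes. Of 1973 identifiers 1894 matched GENCODE M21 symbols. Mature sequences of at least 18 bases came from RefSeq (GRCm38.p6), which held all 3 genes, and were located in GENCODE hairpins. A single count equals 0.429 CPM in replicate 2, and 0.195 CPM in the deeper replicate 1. Tests were exact binomial tests with library sizes scaled by TMM. P-values were adjusted by Benjamini-Hochberg and called under 0.05, a procedure tested on simulated counts with counting error only. Such p-values measure reads of these libraries. Exact intervals are Clopper-Pearson at 95%. Named genes were the 3 genes, the miR-15/16 group, the highest duplicated and unique gene of each family, the 3 nearest genes in level, the 3 highest duplicated genes, the most abundant gene and cell type markers. Pairs of genes at either end of their order, and the neighbours of the Mir103 pair, were named after their values had been seen. Genes and lists were chosen with earlier results of these data known.

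Alternatives were other CPM denominators, the column without regard to strand, each replicate left out, other ways of combining the Mir103 genes, other scalings, pseudocounts and count minimums, and other definitions of a duplicated product. Chosen after seeing the data were the dispersion and count minimums for single genes, the column without regard to strand for counts of calls, and the hairpin definition within families. Software was R 4.3.3, edgeR 4.0.16, DESeq2 1.42.0, Python 3.11.15, pandas 2.3.3, SciPy 1.17.1, Biopython 1.88 and matplotlib 3.10.9.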

Additional observations from a re-analysis of the deposited data

Results flagged for a closer look

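Reads lay on the strand opposite to Mir497b, a gene listed for the miR-15/16 group, in a column that entered no main comparison. They numbered 4297 in replicate 2 and 10309 in replicate 1, above the 3 counts that a count of 0 allows. Whether the product of Mir497b carries the seed of that group was not tested. On its own strand Mir497b had 2 counts and 0 counts. Mir103-1, Mir103-2 and Mir107 had 0 opposite-strand counts in both libraries.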

How the results depend on the processing

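Of 142 alternative values for 33 results, 124 kept their direction and, where tested, their side of the threshold, or moved by less than the replicate SD or 1.5 times. With multimapping and other mapped unassigned reads in the denominator, Mir103-2 stood at 44.2 CPM and Mir107 at 1202 CPM. Without regard to strand, Mir497b averaged 1872 CPM, against 0.429 CPM on its own strand. The log2 ratio of the Mir103 genes to Mir107 was -4.77 with Mir103-2 alone and -6.47 with a geometric mean. The log2 ratio of Mir107 between replicates, 0.075, lost its call with DESeq2 size factors (0.028) and with the common dispersion added (0.075). Library totals gave 112 genes higher and 65 lower in replicate 2, because all ratios shift. With the common dispersion added, the exact beta-binomial test called 0 genes higher and 1 lower, with 15 genes at an unadjusted p under 0.05, against 185 in the exact binomial test. That dispersion comes from the difference between these same libraries, so few calls follow from its construction and it says nothing about the stability of a call. When defined by 20 shared hairpin bases, 8.13% of duplicated and 25.2% of unique genes passed. That definition also classes genes without a mature sequence, so its set of genes is not that of the main one. At a minimum of 1 count, 17.5% of duplicated and 52.6% of unique genes passed. The median CPM of unique genes was 0.507, against 0.214 by the hairpin definition and 0.390 to 0.429 with a replicate left out. The miR-29 ratio was -0.51 by the hairpin definition, which classes Mir29c as duplicated. By the first 20 bases, or by the hairpin definition, Mir107 itself counts as duplicated, so the ratio of the Mir103 genes to it could not be formed. Of the 3 genes Mir103-1 had the fewest counts, 23 in replicate 2 and 27 in replicate 1. No paired analysis was possible because there is 1 group.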
